A study of Homo sapiens with 7 samples.

Results

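The comparison described here sets JMJD3c mut-hESCs after 4 days of doxycycline (Dox) against the same line without Dox. JMJD3c mut-hESCs are human embryonic stem cells of the SEES-3 line, an established cell line, with a Tet-On piggyBac insert that expresses an HA-tagged, nuclear JMJD3c in which a point mutation removes catalytic activity. JMJD3c is the C-terminal, catalytic region of JMJD3, the product of KDM6B. Both groups carry the insert, the constitutive transactivator, the drug selection genes and the selection in puromycin, and both were grown without feeder cells in the same medium. The treated group received Dox at 1 µg/ml. Of the 7 libraries of the series, 1 comes from each of the 2 groups, and the other 5 are the JMJD3c line, with the active enzyme, at Days 0 to 4 of Dox. The comparison covers 20186 of the 22670 rows listed per library. It leaves out 2483 rows on alternate or patch sequences and PAICS, for which the estimate failed in the untreated library.

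JMJD3 removes di- and trimethyl groups from lysine 27 of histone H3, a mark laid down by Polycomb complexes at silent developmental genes. Human embryonic stem cells hold their state through the POU5F1, SOX2 and NANOG network together with NODAL, FGF and Wnt signals. A form of the enzyme without catalysis, grown with the inducing drug, shows what the drug, the days in culture and the protein without its activity are accompanied by. The insert also holds a βgeo reporter, whose X-Gal staining the paper used to check induction by Dox. With 1 library a group, Dox, time in culture, the mutant protein and the reporter cannot be told apart. The culture time of the untreated cells is not given in the sources used here.

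The deposited values are FPKM, with the lower and upper ends of a 95% Cufflinks interval. That interval covers the estimate within 1 library and not the variation between cultures, so no p-value is given. A gene was called higher when its ratio of FPKM, Dox over untreated, was above 2 with more than 4 FPKM with Dox, and lower when the ratio was below 0.5 with more than 4 FPKM without Dox. A stricter call also asked that the intervals of both libraries were apart. The values fall on steps of whole reads, which place the depth at about 3660000 reads in the untreated and 3200000 in the Dox-treated library, and at 1770000 at Day 0 of the JMJD3c line, the shallowest. At that depth 4 FPKM of a gene of median length correspond to about 45.9 and 40.1 reads. The depth was not checked against the reads, and it and the values that rest on it may be off by a factor of 2. Fewer transcripts per cell and fewer cells expressing a gene cannot be told apart in these bulk libraries.

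The inducible gene was the largest difference. KDM6B (chromosome 17, 7743222 to 7758114 of hg19) was listed at 2.40 FPKM without Dox and 454 FPKM with Dox, and the insert is KDM6B sequence, so its reads count there. The ends of the intervals put the ratio between 138 and 301. At Day 4 of the JMJD3c line KDM6B was listed at 282 FPKM, so the mutant library held the highest level of this entry in the series. The other demethylase of the pair and the Polycomb enzymes gave no call. KDM6A was listed at 30.3 FPKM without and 27.2 FPKM with Dox, and EZH2, the methyltransferase, at 30.9 and 33.5 FPKM. Of the 12 genes beside KDM6B on the list of H3K27 methylation enzymes, 1 had intervals apart, JARID2, a cofactor of the methyltransferase complex, at 97.5 and 80.3 FPKM.

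Outside KDM6B the 2 libraries were close. The cutoffs called 121 genes higher (0.599% of the rows compared) and 149 lower (0.738%). With intervals apart, 24 were higher (0.119%) and 32 lower (0.159%). Intervals were apart at any ratio for 152 genes higher with Dox (0.753%) and for 205 lower (1.02%), of which 4 and 16 rest on an interval listed as 0 to 0 in 1 library. The median difference in log2(FPKM + 1), Dox minus untreated, was 0.00 over all rows. Of the 9401 rows with a mean above 4 FPKM, 49.0% were lower with Dox and 1.69% were lower with intervals apart. The same cutoffs were applied between the untreated mutant line and Day 0 of the JMJD3c line, neither of which had seen Dox. There they called 279 genes higher (1.38%) and 704 lower (3.49%) in the mutant line, 114 (0.565%) and 230 (1.14%) of them with intervals apart. Between Day 0 and Day 4 of the JMJD3c line they called 602 higher (2.98%) and 775 lower (3.84%). By each of these rules the Dox comparison within the mutant line called fewer genes than that between the untreated libraries of the lines. Day 0 of the JMJD3c line is the shallowest library, and how far its depth adds to the counts of its pairs was not tested.

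**Figure D1:**
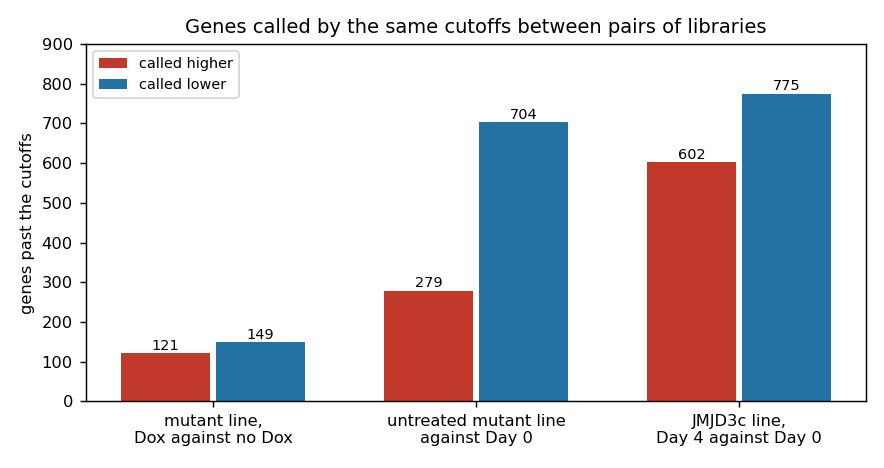
Number of genes past the cutoffs between 3 pairs of libraries, red for higher and blue for lower in the first-named library. The mutant line with and without Dox gives 121 and 149 genes, below the 279 and 704 between the untreated libraries of the 2 lines. Each pair holds 1 library a side, and Day 0, used in the pairs after the first, is the shallowest library.

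**Figure D2:**
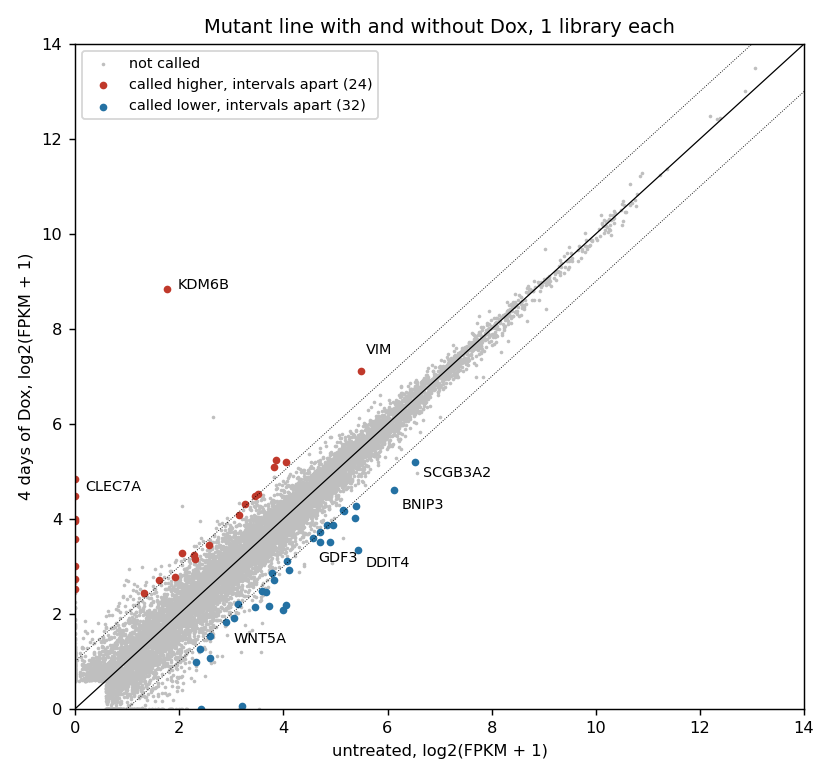
Level of each gene without Dox (horizontal) and after 4 days of Dox (vertical) in the mutant line, both as log2(FPKM + 1). The 24 genes called higher with intervals apart are red and the 32 called lower are blue; dotted lines mark a difference of 1 on the log2 scale, and rows at or below 0.5 FPKM in both libraries are not drawn. KDM6B stands far above the diagonal, and 8 of the red points lie at about 0 without Dox.

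VIM, which encodes the intermediate filament vimentin, was the clearest of the well-measured genes that were higher. Without Dox, VIM (chromosome 10, 17270258 to 17279592 of hg19) stood at 44.1 FPKM (interval 38.1 to 50.1), and with Dox at 138 FPKM (127 to 150), 3.14 times as high. Over Days 0 to 4 of the JMJD3c line its values were 46.9, 108, 211, 413 and 704 FPKM. The untreated libraries of both lines were thus close for VIM, the mutant line with Dox stood above both, and its level lay between Days 1 and 2 of the active enzyme. ME1, MEX3B and NGFR were also called higher in both lines, at low levels. ME1, the cytosolic malic enzyme, was listed at 3.92 and 7.85 FPKM in the mutant line and at 2.93 and 8.56 FPKM at Days 0 and 4 of the JMJD3c line. MEX3B, an RNA-binding protein, was listed at 2.79 and 5.83 FPKM without and with Dox, and NGFR, the low-affinity neurotrophin receptor, at 4.92 and 9.89 FPKM. ME1 and NGFR lie just inside the ratio cutoff, at 2.00 and 2.01, and GPCPD1 just outside it, at 1.95. The intermediate filament gene NES, expressed in neural and other progenitors, was listed at 85.5 and 115 FPKM with intervals apart, a ratio of 1.35, and at 106 FPKM at Day 0 of the JMJD3c line.

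Of the 15 genes with the largest difference in log2(FPKM + 1) among those called higher with intervals apart, 8 were listed at about 0 (below 0.01 FPKM) without Dox. They were RP11-603J24.9, CLEC7A, CHTF8, TGIF2-C20orf24, TMEM56-RWDD3, AC104534.3, HSPE1-MOB4 and AP000349.1, at 4.75 to 27.4 FPKM with Dox. All of these but CLEC7A overlap another entry, and the reads of overlapping entries can be split between them in different ways. TGIF2-C20orf24, a read-through entry, went from 0.00 to 14.6 FPKM while C20orf24, which it overlaps, went from 63.5 to 44.5 FPKM, and their sum was 63.5 and 59.1 FPKM. HSPE1-MOB4, another read-through entry, was listed at 5.61 FPKM with Dox but at 16.5 FPKM at Day 0 of the JMJD3c line. CHTF8 is the smaller of 2 entries of that name, and with both entries summed its difference in log2(FPKM + 1) was 0.60 in place of 4.00. Among the 24 genes called higher with intervals apart, 50.0% overlapped another entry, against 28.1% of the 32 called lower and 29.2% of all rows with a mean above 4 FPKM.

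CLEC7A, a C-type lectin receptor of myeloid cells (chromosome 12, 10269376 to 10282856 of hg19), overlaps no other entry and was listed at 21.4 FPKM with Dox (13.9 to 28.8). It was listed at 0 in each of the other 6 libraries, where in the untreated mutant library 3 reads would have given 0.233 FPKM. PTPRC and CD34, the blood markers followed here, were listed at 0 in both mutant libraries. Others among the 15 were AP000350.10, ADAT1, ZNF20 and IQCC. ADAT1, a tRNA deaminase, was listed at 13.2 and 33.0 FPKM, and at 19.0 FPKM at Day 0. ZNF20, a zinc finger gene, was listed at 3.15 and 8.66 FPKM and overlaps entries named ZNF788, one of which was listed at 7.71 and 3.61 FPKM and the other at 3.77 and 8.08 FPKM.

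Several genes known to be induced by hypoxia were among those called lower with intervals apart. Cells sense oxygen through prolyl hydroxylases that mark the HIF factors for destruction, and HIF binds a short core motif near genes for glucose uptake, glycolysis, mitophagy and growth arrest. DDIT4, an inhibitor of mTORC1 induced by hypoxia and stress and counted here on the ATF4 list (chromosome 10, 74033678 to 74035794 of hg19), stood at 42.4 FPKM without Dox (33.5 to 48.6), and at 9.08 FPKM with Dox (6.07 to 12), a ratio of 0.214. BNIP3, a mitophagy receptor (chromosome 10, 133781578 to 133795435), stood at 68.5 FPKM without Dox (59.5 to 77.5), and at 23.4 FPKM with Dox (17.8 to 29.0), a ratio of 0.342. STC1, a secreted glycoprotein that is also induced by hypoxia, was listed at 11.0 and 4.58 FPKM. DDIT4 and BNIP3 were also below Day 0 of the JMJD3c line, where they stood at 89.8 and 122 FPKM.

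The 250 bases before the RefSeq start of 3 of these genes are given because they hold the core motif that HIF binds. Capitals mark matches to ACGTG or GCGTG on either strand (CACGT and CACGC on the strand shown), and a CACGTG E-box counts as a match on both strands. BNIP3 holds 6 matches, DDIT4 3 and PGK1 3, and coordinates are those of GRCh38.p14.
BNIP3, chr10:131981924-131982173, minus strand: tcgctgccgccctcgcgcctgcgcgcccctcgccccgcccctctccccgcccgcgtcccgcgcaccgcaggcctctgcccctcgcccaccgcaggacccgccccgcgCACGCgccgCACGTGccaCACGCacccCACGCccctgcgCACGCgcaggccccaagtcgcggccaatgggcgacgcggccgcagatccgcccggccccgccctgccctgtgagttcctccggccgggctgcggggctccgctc
DDIT4, chr10:72273674-72273923, plus strand: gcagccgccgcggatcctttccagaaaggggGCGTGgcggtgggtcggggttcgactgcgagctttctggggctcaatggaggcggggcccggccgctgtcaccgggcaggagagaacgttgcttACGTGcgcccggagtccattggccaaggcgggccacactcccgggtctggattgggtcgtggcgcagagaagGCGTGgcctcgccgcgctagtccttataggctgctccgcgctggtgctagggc
PGK1, chrX:78103998-78104247, plus strand: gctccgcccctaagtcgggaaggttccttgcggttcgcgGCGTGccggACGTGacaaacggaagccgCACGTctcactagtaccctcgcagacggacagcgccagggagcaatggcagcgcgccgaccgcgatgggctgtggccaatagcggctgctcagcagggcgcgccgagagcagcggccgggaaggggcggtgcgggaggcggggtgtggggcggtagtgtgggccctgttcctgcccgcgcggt
The motif is common: 43.2% of all 35116 RefSeq windows of that length hold at least 1 match. Of the 37 genes of the hypoxia and glycolysis list, 31 have a window, and 36 of their 60 windows (60.0%) hold a match, which describes letters in these windows and not binding.

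The glycolysis and hypoxia list went the same way as BNIP3. Of its 37 genes, 33 had a mean above 4 FPKM. Of these 33, 28 were lower with Dox (84.8%, against 49.0% of all such rows), 8 of them with intervals apart (24.2%, against 1.69%). The median difference over the 37 genes was -0.19 in log2(FPKM + 1), against 0.00 over all rows. LDHA, which makes lactate from pyruvate, was listed at 524 FPKM (497 to 552) without and 341 FPKM (319 to 363) with Dox. PGK1, a glycolytic kinase, was listed at 408 and 288 FPKM, and P4HA1, a collagen prolyl hydroxylase, at 25.7 and 14.5 FPKM. The glycolytic genes ALDOA and ENO1 and the glucose transporters SLC2A1 and SLC2A3 had intervals apart at ratios between 0.808 and 0.886. PDK1, which holds pyruvate out of the mitochondrion, passed the cutoffs at 9.86 and 4.22 FPKM, with overlapping intervals. PKM, the last kinase of glycolysis, went the other way with intervals apart, from 245 to 331 FPKM, and GAPDH was listed at 2647 and 2636 FPKM. At Day 0 of the JMJD3c line PKM was listed at 438 FPKM, above both mutant libraries.

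The JMJD3c line gave the same direction over its own days. BNIP3 was listed there at 122, 93.1, 43.5, 35.2 and 27.6 FPKM from Day 0 to Day 4, and LDHA at 733, 586, 291, 242 and 238 FPKM. Of the 33 genes, 29 were lower at Day 4 than at Day 0, with a median difference of -0.69. Of all 9401 rows with a mean above 4 FPKM, 5200 were lower. In both lines, 25 of the 33 genes were lower (75.8%, against 29.3% of those rows). The untreated mutant library was itself below Day 0 of the other line for these genes, with a median difference of -0.45. With Dox, 27 of the 33 genes (81.8%) were below both untreated libraries, against 30.1% of all rows with a mean above 4 FPKM.

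**Figure D3:**
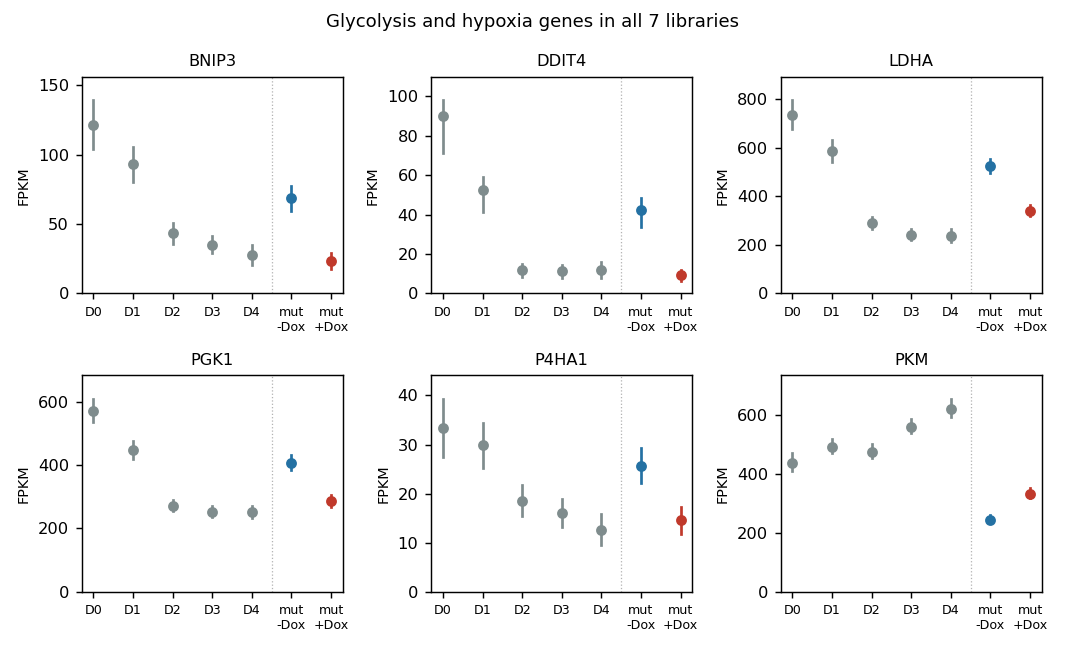
FPKM of 6 glycolysis and hypoxia genes in the 7 libraries, with Days 0 to 4 of the JMJD3c line in grey, the untreated mutant line in blue and the mutant line with Dox in red. Bars are the Cufflinks 95% intervals of single libraries and axes start at 0. The 5 genes other than PKM are lower with Dox in the mutant line, and below Day 0 at each later day of the JMJD3c line. PKM is higher with Dox in both lines, and its Day 0 value lies above both mutant libraries.

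Pluripotency genes were slightly lower as a list. All 25 genes found of the list of 26 were lower with Dox, against 49.0% of all rows with a mean above 4 FPKM. Intervals were apart for 9 (36%, against 1.69%), and 23 (92%, against 30.1%) were below both untreated libraries. The median difference over the 25 genes was -0.25. POU5F1, a core factor of the stem cell network (chromosome 6, 31132119 to 31148508 of hg19), was listed at 716 FPKM (684 to 752) without and 629 FPKM (601 to 663) with Dox. SOX2 was listed at 99.6 and 74.6 FPKM with intervals apart, and NANOG at 109 and 102 FPKM with overlapping intervals. Ratios over the list ran from 0.492 to 0.961. The lowest was that of OTX2, a factor of epiblast and forebrain and the 1 member past the cutoffs, at 15.2 and 7.5 FPKM with overlapping intervals. OTX2 went the other way in the JMJD3c line, from 18.9 FPKM at Day 0 to 47.7 FPKM at Day 4. The other members with intervals apart were DNMT3B, TDGF1, LIN28A, DPPA4, L1TD1, TERF1 and ZIC2, at ratios of 0.733 to 0.914, and the untreated value of L1TD1 lies outside its own interval. At Day 4 of the JMJD3c line 24 of the 25 were lower than at Day 0, with a median difference of -0.68. Of all 9401 rows with a mean above 4 FPKM, 5200 were lower there.

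Most markers of other cells were low in both mutant libraries, with THY1, COL1A1, COL1A2, MAP2, FOXD3 and MIXL1 above 4 FPKM in at least 1. The 9 pluripotent markers fixed for this check summed to 2813 FPKM without and 2445 FPKM with Dox. The 5 endoderm markers summed to 2.01 and 2.82 FPKM, against 62.6 FPKM at Day 4 of the JMJD3c line, with SOX17 and ALB at 0. The 5 mesoderm markers summed to 6.49 and 4.66 FPKM, nearly all of it MIXL1, with MESP1 and HAND1 at 0. The 6 trophoblast or amnion markers summed to 3.00 and 2.99 FPKM, with CGA, CGB5, ISL1 and TP63 at 0. The 5 neural markers summed to 3.15 and 4.81 FPKM, most of it MAP2 at 2.27 and 4.14 FPKM. The 4 neural crest markers summed to 14 and 11.0 FPKM, most of it FOXD3 at 10.7 and 10.5 FPKM. The 7 fibroblast markers summed to 92.8 and 130 FPKM, most of it THY1, which stem cells also express, at 76.1 and 110 FPKM with intervals apart. COL1A1 was listed at 4.18 and 7.54 FPKM and COL1A2 at 12.5 and 12.5 FPKM, so that none of these 3 was lower, and DCN and LUM were at 0. Endothelium (PECAM1 was not found) and muscle were below 1 FPKM. None of the 39 HOX genes found had a mean above 4 FPKM, and none was called.

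The NODAL and activin list was split in direction, and its members with intervals apart were lower. NODAL, a ligand of the TGFβ family that keeps human stem cells undifferentiated (chromosome 10, 72192071 to 72207707 of hg19), stood at 55.3 FPKM without Dox (48.0 to 62.6), and at 34.3 FPKM with Dox (28.3 to 40.2), a ratio of 0.619. Among the other ligands, GDF3 was listed at 22.6 and 11.1 FPKM and passed the cutoffs with intervals apart. Its co-receptor TDGF1 was listed at 206 and 151 FPKM and the receptor ACVR2B at 15.1 and 11.7 FPKM, both with intervals apart. The feedback inhibitor LEFTY1 was listed at 20.7 and 10.6 FPKM, a ratio of 0.511, just outside the cutoff. SKIL, a feedback repressor and target of the pathway, was listed at 60.0 and 47.4 FPKM with intervals apart.

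Other members were listed higher with Dox. SMAD3 was listed at 6.99 and 10.7 FPKM, SMAD4 at 28.5 and 36.0 FPKM and the receptor TGFBR1 at 23.9 and 31.0 FPKM, all with overlapping intervals. Of the 21 of 31 members with a mean above 4 FPKM, 12 were lower (57.1%, against 49.0% of all such rows) and 9 higher. With intervals apart, 7 were lower (33.3%, against 1.69%) and 0 higher, and the median over the 31 was -0.08. In the JMJD3c line NODAL was listed at 68.2 FPKM at Day 0 and 65.3 FPKM at Day 4, GDF3 at 20.6 and 32.1 FPKM and LEFTY1 at 19.7 and 70.0 FPKM. For NODAL, GDF3 and LEFTY1 the mutant line with Dox held the lowest of the 7 levels.

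FGF2 and WNT3 were lower as well, in lists with few well-measured members. FGF2, the mitogen of stem cell medium (chromosome 4, 123747863 to 123819391 of hg19), stood at 21.9 FPKM without Dox (19.6 to 24.2), and at 15.9 FPKM with Dox (13.9 to 18), and at 19.8 FPKM at Day 0 and 11.6 FPKM at Day 4 of the JMJD3c line. FGFBP3, a secreted FGF binding protein, was listed at 19.7 and 11.4 FPKM with intervals apart. The receptors FGFR1 to FGFR4 had ratios between 0.871 and 1.11 with overlapping intervals. Of the 12 of 23 members with a mean above 4 FPKM, 8 were lower and 4 higher, with a median over the 23 of -0.01. Among the 12 the median was -0.08, and 2 were lower with intervals apart (16.7%, against 1.69% of all such rows) and 0 higher.

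WNT3, a canonical Wnt ligand (chromosome 17, 44839872 to 44896126 of hg19), stood at 5.27 FPKM without Dox (3.90 to 6.58), and at 2.77 FPKM with Dox (1.77 to 3.72). WNT5A, a ligand of the noncanonical branch, was listed at 6.46 and 2.55 FPKM and passed the cutoffs with intervals apart. The receptors FZD5 and LGR4 were listed at 27.2 and 20.4 FPKM and at 38.4 and 24.6 FPKM, both with intervals apart. AXIN2, a direct target of β-catenin, was listed at 9.64 and 11.1 FPKM with overlapping intervals. Over the 56 members the median was 0.00, with 25 lower and 21 higher. Of the 22 with a mean above 4 FPKM, 12 were lower and 10 higher, with a median of -0.09. With intervals apart, 4 of these 22 were lower (18.2%, against 1.69% of all such rows) and 0 higher. WNT3 went the other way in the JMJD3c line, from 6.06 FPKM at Day 0 to 10.9 FPKM at Day 4.

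**Figure D4:**
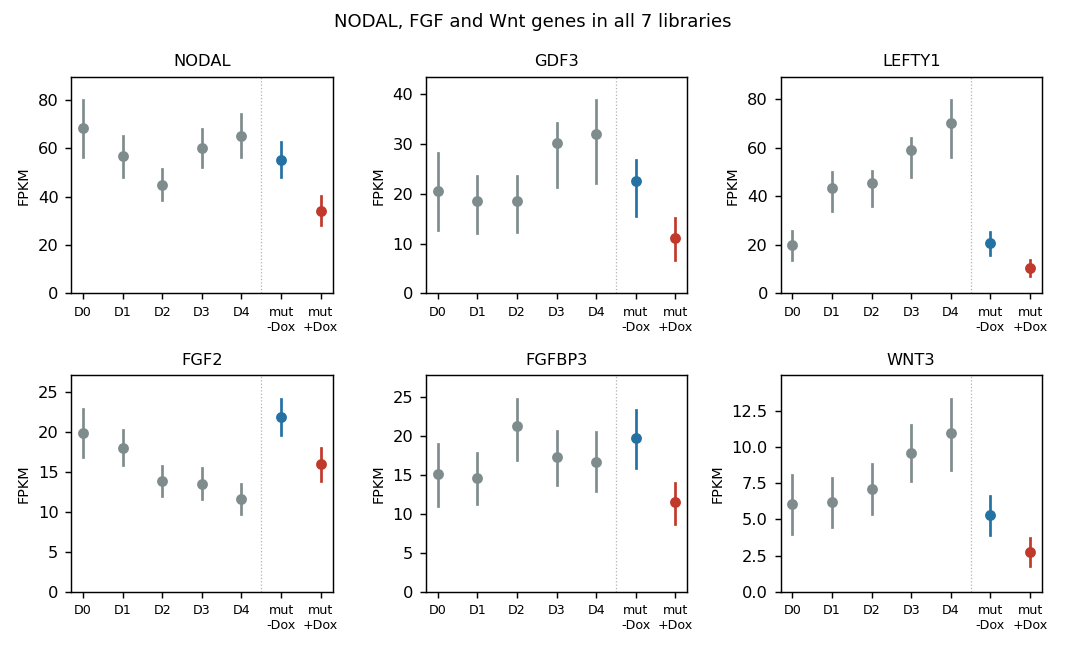
FPKM of NODAL, GDF3, LEFTY1, FGF2, FGFBP3 and WNT3 in the 7 libraries, with the JMJD3c line in grey, the untreated mutant line in blue and the mutant line with Dox in red. Bars are Cufflinks 95% intervals of single libraries and axes start at 0. The red and blue intervals are apart in each panel, and the red point is the lowest of the 7 in each panel but that of FGF2.

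Genes that respond to these and related signals differed in both directions. In the BMP list, ID1 was listed at 48.4 and 30.9 FPKM and ID3 at 52.3 and 86.8 FPKM, both with intervals apart, so that these inhibitors of bHLH factors went opposite ways. BMP4 passed the cutoff at 5.16 and 2.08 FPKM with overlapping intervals, and the median over the 23 members was -0.19. Of the 26 ERK response genes, FOSL1 passed the cutoff at 1.67 and 4.07 FPKM and SPRY4 had intervals apart at 31.7 and 40.5 FPKM, with a median of -0.02. Among 29 endoderm and mesoderm regulators, MIXL1 was listed at 6.35 and 3.29 FPKM and KDR at 13.4 and 10.2 FPKM, and no other member had a mean above 4 FPKM. Among 28 neural and ectoderm regulators no gene was called. NES was the 1 member with intervals apart and was higher, while SIX6, an eye field factor, was listed at 5.27 and 2.90 FPKM with overlapping intervals.

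Heat shock genes were nearly all higher. Of the 16 genes of that list, 15 had a mean above 4 FPKM, and the remaining one was lower. All 15 were higher with Dox, 9 with intervals apart, against 51.0% and 1.46% of all such rows, and 13 were above both untreated libraries (30.5% for all rows with a mean above 4 FPKM). None passed the ratio cutoff, and the median over the 16 was 0.22. DNAJB1, a co-chaperone of HSP70, was listed at 34.0 FPKM (28.2 to 39.7) without and 54.2 FPKM (40.9 to 59.6) with Dox. HSPA1A and HSPA1B, inducible HSP70 genes so alike that their reads cannot be told apart with certainty, were listed at 35.2 and 52.2 FPKM and at 41.1 and 57.9 FPKM. HSP90AA1 was listed at 888 and 1036 FPKM, and HSPA8, the constitutive HSP70, at 1480 and 1663 FPKM. In the JMJD3c line HSPA1A was listed at 29.3 to 30.6 FPKM over all 5 days, while DNAJB1 was listed at 27.1 FPKM at Day 0 and 34.5 FPKM at Day 4. Of the 15 genes, 10 were higher in both lines (66.7%, against 24.9% of all rows with a mean above 4 FPKM). The median difference of the 15 from Day 0 of the JMJD3c line was -0.02, -0.05, 0.04 and 0.17 at Days 1 to 4. The untreated mutant library was itself above Day 0 for the list, by a median of 0.31.

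Upstream windows of 2 of these genes are given because heat shock factor binds inverted GAA repeats. Capitals mark GAANNTTC or TTCNNGAA, each of which reads the same on both strands. The HSPA1A window holds 1 match, and that at the middle of the 3 RefSeq starts of DNAJB1 holds 2, while the other 2 DNAJB1 windows hold 0.
HSPA1A, chr6:31815293-31815542, plus strand: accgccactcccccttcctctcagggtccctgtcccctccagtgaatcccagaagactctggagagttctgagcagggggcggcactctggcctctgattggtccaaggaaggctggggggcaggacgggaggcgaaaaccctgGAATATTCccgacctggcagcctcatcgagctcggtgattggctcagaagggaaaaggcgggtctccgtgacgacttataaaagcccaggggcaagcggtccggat
DNAJB1, chr19:14518398-14518647, minus strand: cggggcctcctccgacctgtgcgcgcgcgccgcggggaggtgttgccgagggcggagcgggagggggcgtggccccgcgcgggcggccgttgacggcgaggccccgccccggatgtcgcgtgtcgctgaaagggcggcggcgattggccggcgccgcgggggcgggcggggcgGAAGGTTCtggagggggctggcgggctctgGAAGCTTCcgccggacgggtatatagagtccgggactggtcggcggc
At least 1 match is held by 11.6% of all RefSeq windows of that length and by 9 of the 21 windows (42.9%) of the 14 list genes that have one.

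Dox is an antibiotic that acts on mitochondrial ribosomes, and the nuclear genes of that machinery held no call. The 75 mitochondrial ribosome protein genes had a median of 0.02 and no call, and MRPL24 was listed at 26.1 and 14.7 FPKM with overlapping intervals. The 14 mitochondrial chaperones and proteases had a median of 0.01, with PHB at 331 and 298 FPKM and PHB2 at 156 and 174 FPKM. The 84 nuclear genes of oxidative phosphorylation had a median of -0.04, with NDUFA9 at 46.5 and 30.0 FPKM, intervals apart. Of the 77 with a mean above 4 FPKM, 52 were lower (67.5%, against 49.0% of all such rows), 1 with intervals apart. Below both untreated libraries were 44 of the 77 (57.1%, against 30.1%). The untreated mutant library was itself below Day 0 for the 77, with a median difference of -0.40. COX17, a copper chaperone of complex IV outside that list, was called lower at 14.8 and 3.24 FPKM with intervals apart. The 47 genes of the ATF4 stress response, which mitochondrial inhibitors can induce, had a median of 0.10. Of these ATF4 was listed at 270 and 262 FPKM and ASNS at 73.1 and 77.9 FPKM, while SHMT2, a mitochondrial one-carbon enzyme, and SLC7A5, an amino acid transporter, were higher with intervals apart, at ratios of 1.26 and 1.19. DDIT4 was the member called, in the other direction.

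Messages encoded by mitochondrial DNA were higher with Dox by a small ratio. Of these 13, 12 were higher (92.3%, against 51.0% of all rows with a mean above 4 FPKM) and 10 had intervals apart (76.9%, against 1.46%), with a median of 0.14, but 11 of the 13 lie outside their own intervals. MT-ATP6 was listed at 8471 and 11535 FPKM and MT-CYB at 1842 and 2397 FPKM, while MT-ND4L went the other way, at 1305 and 1199 FPKM with overlapping intervals. Together they held 9.23% of the FPKM sum without Dox and 10.8% with Dox, and from 10.2% to 12.8% in the JMJD3c line. The untreated mutant library thus had the lowest share of the 7.

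**Figure D5:**
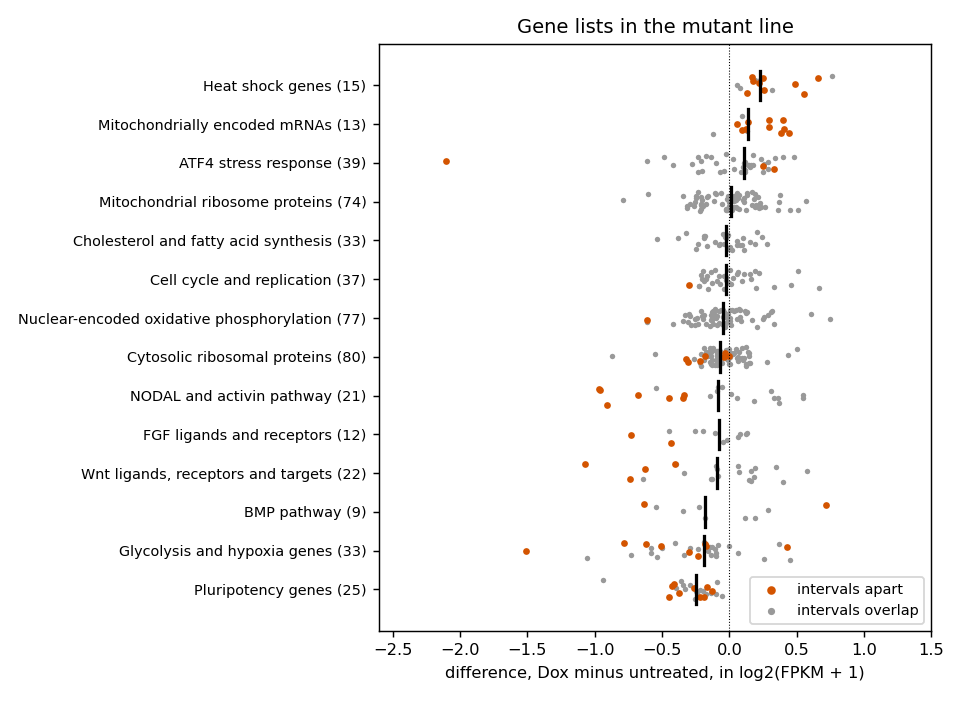
Difference in log2(FPKM + 1), Dox minus untreated, for members with a mean above 4 FPKM in 14 gene lists, the number of genes in brackets. Each point is a gene, orange where the Cufflinks intervals of the 2 libraries are apart, and black bars are medians of the points. Heat shock genes lie to the right of 0 and pluripotency genes to the left.

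The lists of ribosomal protein, lipid synthesis, p53, cell cycle, matrix, histone, interferon and metallothionein genes had medians between -0.25 and 0.00. The 86 cytosolic ribosomal protein genes had a median of -0.07. Of their 80 members with a mean above 4 FPKM, 54 were lower, 7 lower and 0 higher with intervals apart (8.75%, against 1.69% of all such rows), and 3 of the 7, RPL13, RPS20 and RPS6, lie outside their own intervals. RPS27 was called lower there at 4.37 FPKM without Dox and listed at 0 with Dox, and belongs to a family with many near copies, so its value is uncertain. Medians were -0.02 for 33 genes of cholesterol and fatty acid synthesis, -0.14 for 24 p53 targets, -0.02 for 41 cell cycle genes and 0.00 for 80 genes of laminins, collagens and integrins. LSS, of sterol synthesis, was listed at 35.8 and 27.3 FPKM, the p53 targets DDB2 and MDM2 at 18.7 and 12.2 FPKM and at 30.2 and 40.4 FPKM, and the helicase subunit MCM4 at 185 and 150 FPKM, the last with intervals apart. The basement membrane gene NID1 had intervals apart at 9.37 and 13.4 FPKM. Of the 80 histone genes HIST1H2AC was called lower with intervals apart, at 12.2 and 3.47 FPKM. Of 27 interferon response genes 2 were called higher and 0 lower, against 0.599% and 0.738% of all rows compared. These were MX1 and IRF7, at 1.88 and 4.78 FPKM and at 1.85 and 4.42 FPKM with overlapping intervals. IFITM1 was lower with intervals apart, at 318 and 213 FPKM. The median over 11 metallothioneins and zinc exporters was -0.25, and -0.51 over the 6 with a mean above 4 FPKM. Of the 11, 2 were called lower (0.738% of all rows compared) and 0 higher. These were MT1X at 11.1 and 2.52 FPKM and MT1F at 12.9 and 6.42 FPKM, with overlapping intervals. For the 6 the untreated mutant library was itself below Day 0 of the JMJD3c line, with a median difference of -1.03.

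The genes called lower with intervals apart held few that share a list. Besides DDIT4, BNIP3, RPS27, COX17 and HIST1H2AC, the 15 with the largest difference were MSANTD3-TMEFF1, TM9SF1, CDRT4, RNF31, PCCA, PRSS35, SCGB3A2, MET, OSGIN2 and SIGIRR. SCGB3A2, a secreted protein of the secretoglobin family, stood at 91.4 FPKM without Dox (70.6 to 112), at 35.5 FPKM with Dox (22.0 to 49.6), and at 80.7 FPKM at Day 0 of the JMJD3c line. MET, the receptor of hepatocyte growth factor, was listed at 9.94 and 3.42 FPKM, and PCCA, a subunit of propionyl-CoA carboxylase, at 40.7 and 15.2 FPKM. PCCA was at 15.5 FPKM at Day 0 of the other line, so there the untreated mutant library is the one that stands high. MSANTD3-TMEFF1 is a read-through entry beside TMEFF1, whose sum with it was 46.5 and 49.2 FPKM. TM9SF1 and RNF31 lie near each other on chromosome 14 and overlap other entries, as does CDRT4 on chromosome 17.

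Some genes called with intervals apart in the mutant line also differed from Day 0 of the JMJD3c line. This set can only be as long or shorter, and both comparisons use the same Dox-treated library. Of the 24 genes called higher with intervals apart, 11 were also called with intervals apart against Day 0 of the JMJD3c line, among them KDM6B, VIM, ME1, MEX3B and CLEC7A, and 5 more were overlapping entries with compound or clone names. The 11th was CHTF8, for its smaller entry. Of the 32 called lower, 9 were: DDIT4, BNIP3, STC1, COX17, TM9SF1, CDRT4, SCGB3A2, JPH4 and STOM. STOM, a membrane protein, was listed at 25.2 and 12.2 FPKM in the mutant line and at 31.4 and 10.4 FPKM at Days 0 and 4 of the JMJD3c line. The lines share no library in their own comparisons. There, 14 of the 24 genes were higher and 22 of the 32 were lower at Day 4 than at Day 0 as well, and 8 and 7 of them were called, while 2 of each set were called the other way. KDM6B, whose reads include the insert, is among the 14 and the 8. Of all 9401 rows with a mean above 4 FPKM, 4199 were higher and 5200 lower at Day 4. By the cutoffs alone, 26 genes were called higher and 32 lower in both lines, which are 21.5% of the calls in either direction in the mutant line, and 4.32% and 4.13% of those in the JMJD3c line. In the opposite direction, 14 of the 121 genes called higher in the mutant line were called lower in the JMJD3c line. Of the 149 called lower, 17 were called higher there. Of all 20186 rows compared, 2.98% were called higher and 3.84% lower at Day 4, but only 9401 of these rows had a mean above 4 FPKM.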

How the data were processed

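RNA was taken from 7 cultures of SEES-3 lines, 1 library each, and poly(A) RNA was sequenced as single-end reads. Per the submitters' processing notes, the authors used CASAVA 1.4, TopHat2 2.0.13 and Cufflinks 2.1.1 with the hg19 genome, and deposited FPKM per gene with 95% interval ends. FPKM has no read counts, so depth was estimated from the spacing of low values of single-exon genes. Samples were grouped by their titles. Analyses were run in Python 3.11.15 with pandas 2.3.3. Ratios used FPKM as deposited, and log2 differences a pseudocount of 1, which understates low genes. All 20186 rows entered the comparison. Of these, 145 and 127 lie outside their own interval in the untreated and treated library. Where a name has several entries, the one with the highest mean was used. Transcript lengths came from an annotation on the same assembly and covered 96.6% of rows. Call rules and the depth estimate were tested on simulated data. Members and lists were chosen with earlier results of these data known. Named genes were the 4 markers KDM6B, NODAL, FGF2 and WNT3, the 15 largest differences each way called with intervals apart (no small-RNA genes, none under 300 bases), and in each list the called members with intervals apart or the 2 to 4 largest differences above 4 FPKM. List members with intervals apart, other members of interest and the genes with a call in both lines were named after their values were seen. Alternatives were other cutoffs, scalings, pseudocounts, a Day 0 reference and filters. No p-value was possible. Some genes that met these rules are not reported here.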

Additional observations from a re-analysis of the deposited data

Results flagged for a closer look

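Among the named genes, 4 had intervals apart in both lines and went opposite ways, lower with Dox in the mutant line and higher at Day 4 of the JMJD3c line. The difference between the lines was not tested, since each line has 1 library a condition. LEFTY1, the NODAL inhibitor, had a log2 difference of -0.91 in the mutant line and 1.78 in the JMJD3c line. WNT3 had -0.74 and 0.76, from 5.27 to 2.77 FPKM and from 6.06 to 10.9 FPKM. OSGIN2 had -1.19 and 1.74, and its level without Dox was 11.7 FPKM in the mutant line and 2.66 FPKM in the other. SLC2A3, a glucose transporter, had -0.17 and 0.23, a small difference in each line.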

How the results depend on the processing

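No paired analysis was possible because each group has 1 library, and for the same reason leaving out a replicate was not run. The counts of genes called higher and lower, 121 and 149, became 385 and 528 with a cutoff of 1 FPKM, 38 and 52 with 10 FPKM, 495 and 503 with a ratio of 1.5, 38 and 36 with a ratio of 3, and 324 and 834 with Day 0 of the JMJD3c line as reference. With intervals apart, 24 and 32 became 68 and 79 with a ratio of 1.5, 10 and 9 with a ratio of 3, and 117 and 280 with the Day 0 reference. The lower count became 63 with 1 FPKM and the higher count 14 with 10 FPKM. Both scalings and the 3 filters left all 4 counts within 1.5 times. Among the 102 named genes, the Day 0 reference turned the direction for 4 with intervals apart in the mutant line: HSPE1-MOB4 (-1.40), OSGIN2 (0.59), MT-ND1 (-0.34) and THY1 (-0.10). Turns of genes with overlapping intervals, such as COL1A1, were not counted. The Day 0 reference also turned the median of the ATF4 list, from 0.10 to -0.16, the only turn among lists with a median beyond 0.1 in size. It moved the medians of 12 other lists of 28 by over 0.1. Some of these changed sign from near 0, such as mitochondrial chaperones and proteases, from 0.01 to -0.21. Dividing by the median ratio moved no gene or list. Summing the entries of a name moved 1 named gene, CHTF8, to 0.60. The cause of these shifts was not tested. At this depth, genes near 4 FPKM rest on about 40.1 reads at the median length, and shorter genes on fewer.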

Other observations

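GPC4, a cell surface proteoglycan, was listed at 50.4 FPKM without Dox and 80.6 FPKM with Dox, with intervals apart, and at 42.7 FPKM at Day 0 and 171 FPKM at Day 4 of the JMJD3c line. The gap junction gene GJA1 was listed at 289 and 183 FPKM in the mutant line and at 283 and 208 FPKM in the JMJD3c line, and ALPL, alkaline phosphatase, at 73.5 and 48.9 FPKM and at 66.4 and 39.8 FPKM. These genes were chosen after their values were seen.

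Median differences across 5 classes of GC content ran from -0.01 to 0.03, and across 5 classes of transcript length from -0.02 to 0.02, among rows with a mean above 4 FPKM.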
